A study of Mus musculus with 8 samples.

Results

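The 10 genes described here encode the DNA damage checkpoint kinases, their adaptors and the CDC25 phosphatases. They are Atm, Atr, Chek1, Chek2, Wee1, Clspn, Topbp1, Cdc25a, Cdc25b and Cdc25c, taken by gene name from a table of 56748 genes, in which all 10 were found. RNA was sequenced from 8 cultures of 32D cells, an interleukin-3-dependent mouse myeloid line that had been transduced with murine Jak2. The 4 groups were Jak2WT GLUT1/3 WT, Jak2WT GLUT1/3 dKO, Jak2V617F GLUT1/3 WT and Jak2V617F GLUT1/3 dKO, with 2 clones each, numbered 1 and 3. Jak2V617F is the constitutively active kinase mutant of myeloproliferative neoplasms. The dKO cells lacked both glucose transporters after CRISPR-Cas9 editing of Slc2a1 (GLUT1) and Slc2a3 (GLUT3), which the labels call KO. All groups were kept for 24 hours in low-supplement medium with 5 mM glucose, 1 mM glutamine, 10% serum and 2 ng/ml interleukin-3. Every library came from 1 clone grown from a single cell, so the replicate spread below is the spread between 2 clones of 1 cell line. The cells had also been diluted to single cells before editing, so clones of a background can share a founder. The spread between clones does not measure differences between founders.

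These genes form a relay that holds the cell cycle when DNA is broken or replication stalls. ATM is activated by double-strand breaks and ATR by single-stranded DNA at stalled forks, where TOPBP1 switches ATR on and claspin, the product of Clspn, presents CHK1 to it. ATM mainly activates CHK2 and ATR mainly activates CHK1, and both effector kinases phosphorylate CDC25 phosphatases, which are then degraded or held by 14-3-3 proteins. CDC25 phosphatases remove the inhibitory phosphates that WEE1 and MYT1 place on cyclin-dependent kinases, so WEE1 and CDC25 act on the same residues in opposite directions. In proliferating blood progenitors the ATR and CHK1 arm also works in each unperturbed S phase. The control of these proteins is largely by phosphorylation and degradation, which RNA levels do not show.

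The promoters of 4 genes that rose most in Jak2V617F cells after GLUT1/3 loss are shown first, with that of Atr, which did not rise, for contrast. RefSeq promoter sequences (build GRCm38.p6, 250 bases before to 50 bases after the annotated start) were held for 8 of the 10 genes, all except Wee1 and Cdc25c. Both strands were searched for the E2F-type letters TTTCCCGC, TTTGGCGC, TTTCGCGC and TTTGCCGC and for a second form, GGCGGGAA, which can overlap the reverse complement of TTTCCCGC. E2F factors drive genes of the G1 to S transition, and these letters are the textbook core of their sites. Capitals mark a match on either strand, and every sequence runs 5′ to 3′ along its gene. The windows are chr4:126556730-126557029, plus strand for Clspn, chr9:36726609-36726908, minus strand for Chek1, chr9:109875329-109875628, plus strand for Cdc25a, chr9:103305077-103305376, plus strand for Topbp1 and chr9:95857347-95857646, plus strand for Atr.
Clspn: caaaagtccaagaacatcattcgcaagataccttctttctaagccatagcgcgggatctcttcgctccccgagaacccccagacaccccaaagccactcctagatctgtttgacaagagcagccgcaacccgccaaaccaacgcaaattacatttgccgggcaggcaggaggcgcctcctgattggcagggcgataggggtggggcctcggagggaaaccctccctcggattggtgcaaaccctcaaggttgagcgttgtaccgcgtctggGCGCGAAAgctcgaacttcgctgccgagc
Chek1: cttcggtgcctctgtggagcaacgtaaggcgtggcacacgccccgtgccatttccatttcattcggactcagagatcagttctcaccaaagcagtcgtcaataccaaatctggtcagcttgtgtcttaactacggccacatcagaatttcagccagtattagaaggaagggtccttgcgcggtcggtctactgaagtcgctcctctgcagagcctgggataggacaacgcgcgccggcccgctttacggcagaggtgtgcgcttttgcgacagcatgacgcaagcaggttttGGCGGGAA
Cdc25a: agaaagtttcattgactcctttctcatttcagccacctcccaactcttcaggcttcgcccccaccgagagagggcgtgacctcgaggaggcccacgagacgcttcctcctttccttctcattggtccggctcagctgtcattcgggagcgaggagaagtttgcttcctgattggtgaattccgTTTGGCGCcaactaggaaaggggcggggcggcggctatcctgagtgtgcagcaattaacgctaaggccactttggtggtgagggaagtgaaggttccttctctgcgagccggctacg
Topbp1: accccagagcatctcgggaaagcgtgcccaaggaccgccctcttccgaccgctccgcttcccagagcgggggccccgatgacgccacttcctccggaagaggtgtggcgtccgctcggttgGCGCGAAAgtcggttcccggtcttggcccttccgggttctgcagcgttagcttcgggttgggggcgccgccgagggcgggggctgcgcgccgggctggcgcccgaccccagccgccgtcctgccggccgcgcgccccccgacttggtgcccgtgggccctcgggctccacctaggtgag
Atr: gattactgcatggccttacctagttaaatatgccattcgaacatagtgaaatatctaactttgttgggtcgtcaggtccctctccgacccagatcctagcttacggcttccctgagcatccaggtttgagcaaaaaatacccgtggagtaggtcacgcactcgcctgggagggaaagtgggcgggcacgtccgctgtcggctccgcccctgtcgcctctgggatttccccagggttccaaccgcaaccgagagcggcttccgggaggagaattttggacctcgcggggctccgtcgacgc

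Counted from the annotated start as base 1, with no base 0, the match lay at 22 to 29 in Clspn, at 43 to 50 in Chek1, at -67 to -60 in Cdc25a and at -129 to -122 in Topbp1. Chek2 held TTTCCCGC on the opposite strand at -152 to -145, and no match lay in the windows of Atm, Atr and Cdc25b. Thus 5 of 8 windows held a match, against 3.89% of all 32851 RefSeq promoters and 7.42% of the 10329 promoters of genes tested here. The spellings were chosen after these sequences had been seen, so the share is a description. The CHR letters TTTGAA or TTCGAA, an element of G2 and M phase promoters, were found in Atr at -215 to -210 and in Cdc25b at 8 to 13, and in 19.2% of all promoters. A match is not evidence that a factor binds there.

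The libraries held 16846011 to 48884329 reads on genes, recovered from the deposited values as described under processing, and the fewest reads on any of the 10 genes in a library were 418. Slc2a1 was at 44.7 and 48.4 FPKM in Jak2WT GLUT1/3 WT and 9.47 and 9.17 in Jak2WT dKO, and at 64.0 and 53.0 in Jak2V617F GLUT1/3 WT and 17.3 and 12.7 in Jak2V617F dKO. Slc2a3 was at 97.7 and 91.9, then 16.0 and 49.5, 198 and 166 and 48.2 and 23.8 FPKM in the same order, so both targeted RNAs were lower but present in the dKO clones, and the 2 Jak2WT dKO clones differed in Slc2a3. The summed FPKM of the 11 matched erythroid markers was 276 and 291 in Jak2WT GLUT1/3 WT, 422 and 449 in Jak2WT dKO, 1008 and 645 in Jak2V617F GLUT1/3 WT and 4882 and 2716 in Jak2V617F dKO. Of these 11, 5 reached 1 FPKM in the Jak2WT GLUT1/3 WT libraries and 8 in the Jak2V617F dKO libraries. Most of the sum in Jak2V617F dKO clone 1 was Hba-a1 at 2007 and Hbb-bs at 2209 FPKM. Of 8 tested, 6 were higher and 1 lower after GLUT1/3 loss in Jak2V617F cells (87.5% called, against 29.9% of all genes). In Jak2WT cells 2 were higher (25% against 13.7%). With Jak2V617F 5 were higher and 1 lower with intact transporters (75% against 30.3%) and 6 higher among dKO cells (75% against 17.1%). Gata1 went the other way in Jak2V617F cells, from 58.1 and 48.7 FPKM to 41.1 and 34.0. Of 10 myeloid progenitor markers 5 reached 1 FPKM in every library, with sums of 248 and 219, 197 and 160, 196 and 201, and 89.1 and 92.0 in the 4 groups. Of the granule genes in that list Mpo, Elane and Ctsg were at or under 0.2033 FPKM, whereas Prtn3 was at 3.11 to 10.2 FPKM in the 8 libraries. The 7 megakaryocyte markers given here summed to 65.8 and 65.0, 89.4 and 94.4, 183 and 193, and 249 and 194 FPKM in the same order. Itga2b, at 61.3 to 184 FPKM, made up most of each sum. Of the 7, 5 reached 1 FPKM in the Jak2V617F dKO libraries and 3 in the others. Of the 5 tested 3 were higher after GLUT1/3 loss in Jak2WT and 3 in Jak2V617F cells (7.62% and 13.7% of all genes were). With Jak2V617F 3 were higher among cells with intact transporters and 5 among dKO cells (15.3% and 7.12% of all genes). The 10 mast cell and basophil markers summed to 167 to 223 FPKM in Jak2WT and 122 to 164 in Jak2V617F libraries. Of these 10, 2 reached 1 FPKM in every Jak2WT library and 1 or 2 in the Jak2V617F libraries. Cpa3, a mast cell protease, was at 50.8 to 100.5 FPKM in the 4 Jak2WT libraries and 0 to 1.67 in the 4 Jak2V617F libraries. Gata2 was at 115 to 163 FPKM in all 8, and every other marker of that list was under 1 FPKM throughout. No lymphoid marker of 8 reached 1 FPKM. The part of these differences in the results below was not tested.

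All 10 genes were expressed at 1 FPKM or more in all 8 libraries, so the filter on low values removed none of them. FPKM is fragments per length of gene and per number of reads in the library, which allows levels of different genes to be set side by side as far as the listed gene lengths hold. Those lengths ran from 3001 bases for Chek2 to 23629 for Atr, and the order of genes below depends on them. Topbp1 was the highest of the 10 in every group, at a mean of 18.4 to 31.7 FPKM, and in Jak2V617F GLUT1/3 WT its clones overlapped those of Cdc25b. In Jak2WT GLUT1/3 WT the order was Topbp1, Cdc25b, Clspn, Wee1, Chek2, Chek1, Atm, Cdc25a, Cdc25c and Atr, in which Clspn and Wee1, Chek2 and Chek1, Atm and Cdc25a, and Cdc25c and Atr overlapped. In Jak2WT dKO Clspn overlapped Cdc25b, Cdc25b overlapped Wee1, and Cdc25c was the lowest. In Jak2V617F GLUT1/3 WT the lower end was Atm, Atr, Chek1, Cdc25a and Cdc25c, in which Atm and Atr, Chek1 and Cdc25a, and Cdc25a and Cdc25c overlapped, and higher up Clspn overlapped Chek2. In Jak2V617F dKO Clspn stood next to Topbp1 at the top, Chek1, Cdc25a, Chek2 and Atm each overlapped the next in that order, and Atr had the lowest mean, overlapping Cdc25c.

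**Figure D1:**
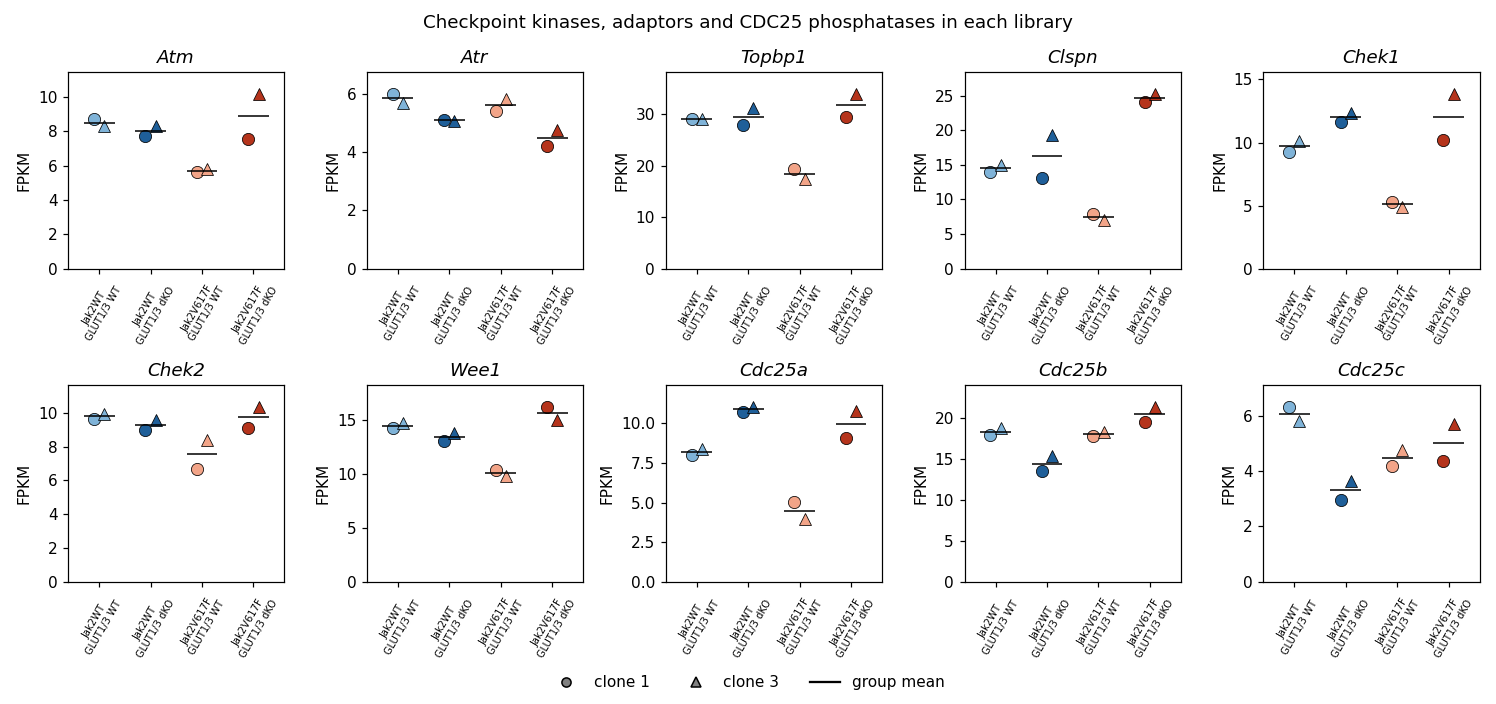
FPKM of each of the 10 genes (vertical axes, each from 0) in the 4 groups, with circles for clone 1, triangles for clone 3 and a line at the mean of the 2 clones. In 7 of the 10 panels both Jak2V617F GLUT1/3 WT clones lie below all 6 other libraries, and the exceptions are Atr, Cdc25b and Cdc25c.

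After GLUT1/3 loss in Jak2V617F cells 6 of the 10 genes were higher and none was lower at an adjusted p under 0.05. These were the mediators Clspn and Topbp1, the effector kinase Chek1, the phosphatase Cdc25a, the CDK inhibitory kinase Wee1 and the sensor kinase Atm, with log2 differences from 0.55 to 1.59. Among all 11818 genes tested, 29.9% were called in this comparison, with 13.7% higher and 16.2% lower. The test was limma on log2(FPKM + 1) with 1 spread shared by the 4 groups, and because 1 is added to each value it understates the change of low genes. Against the 6 called, Chek2, Atr, Cdc25b and Cdc25c did not pass. With libraries scaled to the same total FPKM the split of all calls went from 1614 higher and 1919 lower to 2192 higher and 1452 lower.

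Without GLUT1/3 loss, 6 genes were lower in Jak2V617F than in Jak2WT cells and none was higher. They were Clspn, Chek1, Cdc25a, Topbp1, Atm and Wee1, with log2 differences from -0.87 to -0.48. Among all genes 30.3% were called, with 15.3% higher and 14.9% lower. This comparison and the preceding one share the 2 Jak2V617F GLUT1/3 WT libraries, so their lists of genes are not independent of each other. In a count chosen after the values had been seen, both of these libraries lay below all 6 others for 7 of the 10 genes and for 14.8% of all genes tested. With the same total FPKM the median difference of all genes moved from 0.0076 to -0.12 and the split of calls from 1812 higher and 1765 lower to 1223 higher and 2930 lower, and without Jak2WT GLUT1/3 WT clone 3 the 6 became 4.

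In Jak2WT cells 1 of the 10 genes, Cdc25c, was lower after GLUT1/3 loss and none was higher. Of all genes 13.7% were called, with 7.62% higher and 6.06% lower, and 3 of the 10 had an unadjusted p under 0.05. Leaving out any 1 of the 4 Jak2WT libraries gave 0 calls among the 10, and leaving out either Jak2V617F dKO clone gave 2. With the same total FPKM the split of all calls went from 901 higher and 716 lower to 706 higher and 1378 lower, with 2 of the 10 lower.

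Among dKO cells 2 of the 10 genes were higher with Jak2V617F than with Jak2WT, Clspn and Cdc25b, and none was lower. Here 17.1% of all genes were called, with 7.12% higher and 9.96% lower. With voom on the recovered reads the split of all calls went from 842 higher and 1177 lower to 1351 higher and 1336 lower. The count was 1 without either Jak2WT GLUT1/3 WT clone, either Jak2V617F GLUT1/3 WT clone or Jak2V617F dKO clone 3, and 0 without Jak2WT dKO clone 1.

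**Figure D2:**
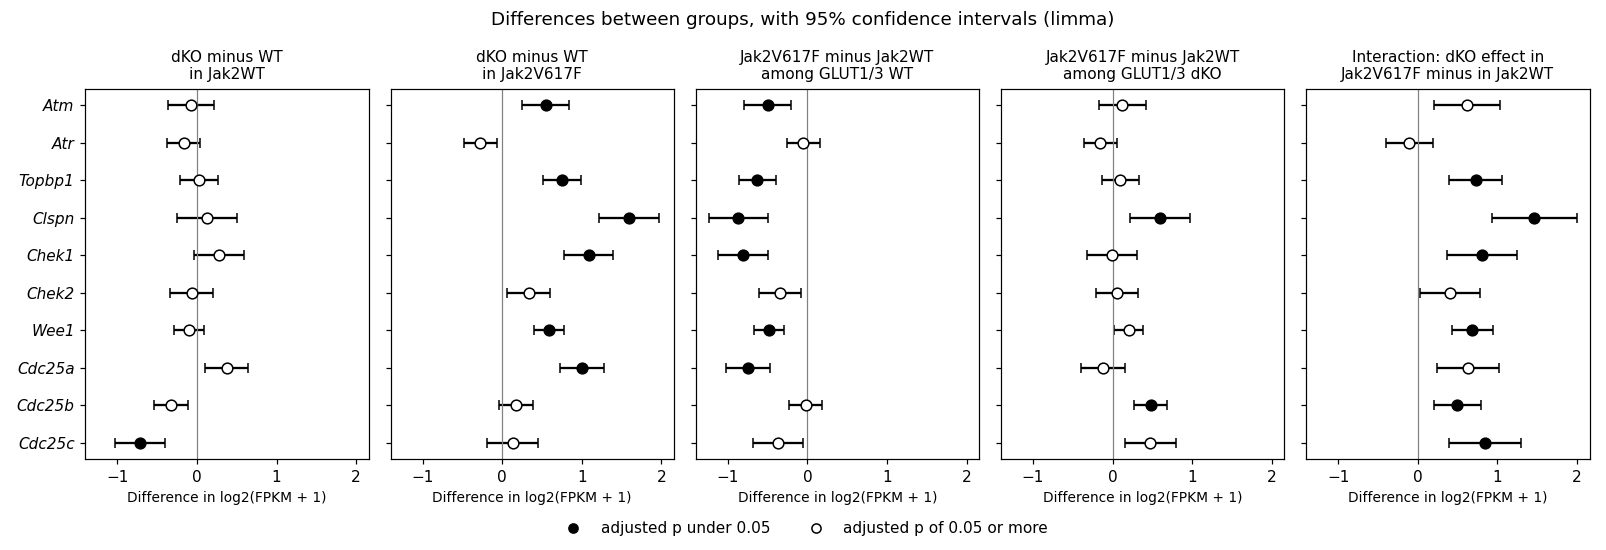
Difference in log2(FPKM + 1) of each gene (rows) in the 5 comparisons (panels), with bars for the 95% confidence interval of the limma fit and filled circles for an adjusted p under 0.05. The second panel holds 6 filled circles to the right of 0, from 0.55 for Atm to 1.59 for Clspn, and the third holds 6 to the left.

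Of the sensor kinases, Atm (ENSMUSG00000034218, chr9:53350449-53448040, minus strand, GRCm39) encodes the kinase that responds to double-strand breaks. It was at 8.70 and 8.31 FPKM in Jak2WT GLUT1/3 WT, 7.73 and 8.32 in Jak2WT dKO, 5.63 and 5.81 in Jak2V617F GLUT1/3 WT and 7.59 and 10.2 in Jak2V617F dKO. The Jak2V617F GLUT1/3 WT clones were low and near each other, while the Jak2V617F dKO clones lay apart and on both sides of the Jak2WT GLUT1/3 WT values. Atm rose by 0.55 ± 0.13 (SE), adjusted p = 0.0171, after GLUT1/3 loss in Jak2V617F cells, and was lower by a log2 difference of -0.50 ± 0.13 (SE), adjusted p = 0.0222, in Jak2V617F than Jak2WT cells with intact transporters. In limma the rise passed in 14 of 18 alternatives. It did not pass with no filter on low values (adjusted p = 0.0567) or with only the groups compared (adjusted p = 0.0795). It also did not pass without Jak2V617F GLUT1/3 WT clone 1 or clone 3, where the difference was 0.526 and 0.564. The lower level with Jak2V617F did not pass without any 1 of the 4 libraries compared (adjusted p = 0.0683 to 0.109) or with no filter on low values (adjusted p = 0.0702). In Jak2WT cells the difference after GLUT1/3 loss was -0.07 (95% confidence interval -0.37 to 0.22), with overlapping clones.

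Atr (ENSMUSG00000032409, chr9:95739650-95833834, plus strand, GRCm39) encodes the kinase of stalled replication forks and was by FPKM the lowest or next to lowest of the 10 in every group but Jak2V617F GLUT1/3 WT. Its level was 6.005 and 5.68 FPKM in Jak2WT GLUT1/3 WT, 5.11 and 5.06 in Jak2WT dKO, 5.42 and 5.81 in Jak2V617F GLUT1/3 WT and 4.19 and 4.75 in Jak2V617F dKO. In both backgrounds the dKO clones were below the clones with intact transporters, without overlap. The log2 differences were -0.17 ± 0.09 (SE), adjusted p = 0.234, in Jak2WT cells and -0.27 ± 0.09 (SE), adjusted p = 0.0517, in Jak2V617F cells, and neither passed. The second passed in 1 of 18 alternatives, without Jak2V617F dKO clone 3 (adjusted p = 0.0414). The ratio of Atm to Atr was 1.45 and 1.46 in Jak2WT GLUT1/3 WT, 1.51 and 1.64 in Jak2WT dKO, 1.00 and 1.04 in Jak2V617F GLUT1/3 WT and 1.81 and 2.15 in Jak2V617F dKO. This FPKM ratio was thus lowest in the Jak2V617F cells with intact transporters and highest after the loss of GLUT1/3 in that background. Its level rests on listed lengths of 10338 bases for Atm and 23629 for Atr. By recovered reads Atr was above Atm in every library, so only the change of the ratio between groups is read here.

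Among the mediators, Clspn (ENSMUSG00000042489, chr4:126450728-126487696, plus strand, GRCm39), which links ATR to CHK1, differed most of the 10 genes. It was at 14.0 and 15.0 FPKM in Jak2WT GLUT1/3 WT, 13.1 and 19.4 in Jak2WT dKO, 7.93 and 7.10 in Jak2V617F GLUT1/3 WT and 24.1 and 25.3 in Jak2V617F dKO. The Jak2V617F dKO clones were the highest of all libraries and those with intact transporters the lowest, while the 2 Jak2WT dKO clones lay apart from each other. In Jak2V617F cells the mean was 3.28-fold higher after GLUT1/3 loss, a log2 difference of 1.59 ± 0.16 (SE), adjusted p = 0.00086, which was the 68th highest of 11818 genes. With intact transporters it was lower in Jak2V617F cells by a log2 difference of -0.87 ± 0.16 (SE), adjusted p = 0.00745. That call was lost by a small margin without Jak2WT GLUT1/3 WT clone 3 (adjusted p = 0.0503). Among dKO cells it was higher with Jak2V617F by 0.60 ± 0.16 (SE), adjusted p = 0.0434, and this passed in 8 of 18 alternatives.

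Topbp1 (ENSMUSG00000032555, chr9:103182414-103227627, plus strand, GRCm39) encodes the activator of ATR, which also acts in the firing of replication origins. Its level was 28.9 and 29.0 FPKM in Jak2WT GLUT1/3 WT, 27.8 and 31.2 in Jak2WT dKO, 19.3 and 17.5 in Jak2V617F GLUT1/3 WT and 29.4 and 33.9 in Jak2V617F dKO. The Jak2V617F GLUT1/3 WT clones stood apart at the bottom, and the Jak2WT dKO clones overlapped those of the other 2 groups. After GLUT1/3 loss it rose 1.72-fold in Jak2V617F cells (0.75 ± 0.10 (SE), adjusted p = 0.00234) and with intact transporters it was lower in Jak2V617F than in Jak2WT cells (-0.63 ± 0.10 (SE), adjusted p = 0.00461). In Jak2WT cells the difference after GLUT1/3 loss was 0.02 (-0.21 to 0.26), and its sign turned with the same total FPKM. The ratio of Clspn to Topbp1 was 0.406 and 0.410 in Jak2V617F GLUT1/3 WT and 0.745 and 0.817 in Jak2V617F dKO, against 0.485 and 0.517 in Jak2WT GLUT1/3 WT and 0.472 and 0.620 in Jak2WT dKO.

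Chek1 (ENSMUSG00000032113, chr9:36619778-36638361, minus strand, GRCm39) encodes the effector kinase downstream of ATR. It was at 9.28 and 10.2 FPKM in Jak2WT GLUT1/3 WT, 11.6 and 12.4 in Jak2WT dKO, 5.28 and 4.91 in Jak2V617F GLUT1/3 WT and 10.2 and 13.9 in Jak2V617F dKO. The Jak2V617F GLUT1/3 WT clones were the lowest, and the Jak2V617F dKO clones spanned the Jak2WT dKO clones. The mean was 2.37-fold higher after GLUT1/3 loss in Jak2V617F cells (1.08 ± 0.13 (SE), adjusted p = 0.0017) and 1.91-fold lower in Jak2V617F than Jak2WT cells with intact transporters (-0.81 ± 0.13 (SE), adjusted p = 0.00486). Both calls held in all 18 alternatives. The study picked Chek1 from these libraries for a further assay, so its direction here is not independent evidence. In Jak2WT cells both dKO clones were higher than both clones with intact transporters, with a log2 difference of 0.28 ± 0.13 (SE), adjusted p = 0.201, which did not pass.

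Chek2 (ENSMUSG00000029521, chr5:110987845-111022011, plus strand, GRCm39) encodes the effector kinase downstream of ATM. Its level was 9.62 and 9.97 FPKM in Jak2WT GLUT1/3 WT, 9.01 and 9.60 in Jak2WT dKO, 6.69 and 8.41 in Jak2V617F GLUT1/3 WT and 9.11 and 10.4 in Jak2V617F dKO. The Jak2V617F GLUT1/3 WT clones were again the lowest, but they lay further apart than for Chek1. Neither the difference after GLUT1/3 loss in Jak2V617F cells (0.33 ± 0.11 (SE), adjusted p = 0.064) nor that between Jak2V617F and Jak2WT cells with intact transporters (-0.34 ± 0.11 (SE), adjusted p = 0.0576) passed, and the first has a confidence interval of 0.07 to 0.60. Over 18 alternatives the first passed in 3 (adjusted p = 0.0293 to 0.271) and the second in 4 (adjusted p = 0.0271 to 0.245), and without Jak2V617F GLUT1/3 WT clone 3 both passed. The ratio of Chek1 to Chek2 was 0.965 and 1.02 in Jak2WT GLUT1/3 WT, 1.29 and 1.29 in Jak2WT dKO, 0.585 and 0.789 in Jak2V617F GLUT1/3 WT and 1.12 and 1.34 in Jak2V617F dKO. By FPKM both dKO groups therefore held more Chek1 than Chek2 RNA, and the Jak2V617F cells with intact transporters held less. This rests on listed lengths of 4635 bases for Chek1 and 3001 for Chek2.

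Wee1 (ENSMUSG00000031016, chr7:109721253-109742493, plus strand, GRCm39) encodes the kinase that puts the inhibitory phosphate on CDK1 and CDK2. It was at 14.2 and 14.7 FPKM in Jak2WT GLUT1/3 WT, 13.1 and 13.8 in Jak2WT dKO, 10.3 and 9.78 in Jak2V617F GLUT1/3 WT and 16.2 and 15.0 in Jak2V617F dKO. The clones of each group lay close together, and the 4 groups did not overlap one another. Wee1 rose 1.55-fold after GLUT1/3 loss in Jak2V617F cells (0.59 ± 0.08 (SE), adjusted p = 0.00232) and was 1.44-fold lower in Jak2V617F than Jak2WT cells with intact transporters (-0.48 ± 0.08 (SE), adjusted p = 0.00473). In Jak2WT cells the difference after GLUT1/3 loss was -0.10 (95% confidence interval -0.28 to 0.08). Pkmyt1, which encodes MYT1, the other kinase of these residues, went from 2.79 to 7.79 FPKM in the same Jak2V617F comparison, a log2 difference of 1.20 (adjusted p = 0.00199). The ratio of Wee1 to Pkmyt1 was 3.43 and 3.79 in Jak2V617F GLUT1/3 WT and lay between 1.64 and 2.52 in the 6 other libraries.

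The phosphatase genes did not move together. Cdc25a (ENSMUSG00000032477, chr9:109704647-109722963, plus strand, GRCm39), whose product acts at the G1 to S transition and later, was at 7.98 and 8.41 FPKM in Jak2WT GLUT1/3 WT, 10.7 and 11.0 in Jak2WT dKO, 5.01 and 3.97 in Jak2V617F GLUT1/3 WT and 9.10 and 10.8 in Jak2V617F dKO. Both dKO groups were above their counterparts with intact transporters, without overlap. The mean was 2.22-fold higher in Jak2V617F cells after GLUT1/3 loss (1.00 ± 0.12 (SE), adjusted p = 0.00144), and in Jak2WT cells 1.33-fold, which did not pass (0.37 ± 0.12 (SE), adjusted p = 0.0764) but did in 2 of 18 alternatives. With intact transporters it was 1.82-fold lower in Jak2V617F than in Jak2WT cells (-0.75 ± 0.12 (SE), adjusted p = 0.0042).

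Cdc25b (ENSMUSG00000027330, chr2:131028869-131040417, plus strand, GRCm39) encodes a phosphatase that acts at entry into mitosis. By FPKM, which depends on the listed gene lengths given below, Cdc25b was the highest of the CDC25 RNAs in every library. It was at 17.9 and 18.7 FPKM in Jak2WT GLUT1/3 WT, 13.5 and 15.3 in Jak2WT dKO, 17.8 and 18.2 in Jak2V617F GLUT1/3 WT and 19.5 and 21.3 in Jak2V617F dKO. The Jak2WT dKO clones were the lowest and the Jak2V617F dKO clones the highest, while the groups with intact transporters overlapped. Among dKO cells Cdc25b was 1.42-fold higher with Jak2V617F (0.48 ± 0.09 (SE), adjusted p = 0.0132), a call that was lost without Jak2WT dKO clone 1 (adjusted p = 0.0926). After GLUT1/3 loss the log2 difference was -0.33 ± 0.09 (SE), adjusted p = 0.0526, in Jak2WT cells and 0.17 ± 0.09 (SE), adjusted p = 0.191, in Jak2V617F cells, and neither passed. The first of these passed in 6 of 18 alternatives.

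Cdc25c (ENSMUSG00000044201, chr18:34866046-34884586, minus strand, GRCm39) encodes the phosphatase that activates CDK1 with cyclin B. Its level was 6.32 and 5.82 FPKM in Jak2WT GLUT1/3 WT, 2.98 and 3.66 in Jak2WT dKO, 4.19 and 4.76 in Jak2V617F GLUT1/3 WT and 4.35 and 5.69 in Jak2V617F dKO. The Jak2WT GLUT1/3 WT clones were the highest, the Jak2WT dKO clones the lowest, and the 2 Jak2V617F groups overlapped. In Jak2WT cells it fell 1.83-fold after GLUT1/3 loss (-0.72 ± 0.14 (SE), adjusted p = 0.0187), the only one of the 10 genes called there. The call was lost without Jak2WT GLUT1/3 WT clone 1 (adjusted p = 0.12) or clone 3 (0.0835) and without Jak2WT dKO clone 1 (0.111) or clone 3 (0.0577), with differences of -0.60 to -0.83. In Jak2V617F cells the difference was 0.13 (-0.19 to 0.45). Between the backgrounds the clones did not overlap, with Jak2V617F lower with intact transporters (-0.37 ± 0.14 (SE), adjusted p = 0.0776) and higher among dKO cells (0.48 ± 0.14 (SE), adjusted p = 0.0528). Neither passed, and over 18 alternatives the first passed in 5 (adjusted p = 0.0314 to 0.27) and the second in 4 (adjusted p = 0.0337 to 0.262), in each case including voom on the recovered reads. Gm3550, on the opposite strand, shares 1656 bases with Cdc25c and was listed at 0.135 to 0.671 FPKM, and since the strand setting of the counting was not stated, reads in the shared bases cannot be assigned to one of them.

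The share of Cdc25a among the CDC25 RNAs varied more between groups than the sum of the 3 RNAs. The summed FPKM of the 3 genes was 32.6 ± 0.573 (SD, n = 2) in Jak2WT GLUT1/3 WT, 28.6 ± 2.02 in Jak2WT dKO, 27.0 ± 0.0283 in Jak2V617F GLUT1/3 WT and 35.4 ± 3.45 in Jak2V617F dKO. Cdc25a made up 24.8% and 25.5% of the sum in Jak2WT GLUT1/3 WT, 39.5% and 36.8% in Jak2WT dKO, 18.6% and 14.7% in Jak2V617F GLUT1/3 WT and 27.6% and 28.6% in Jak2V617F dKO. The share of Cdc25a was thus higher in the dKO clones of both backgrounds, without overlap. Cdc25b held 49.6% to 67.6% of the sum, with the highest shares in Jak2V617F GLUT1/3 WT, and Cdc25c 11.0% to 19.7%, with the lowest in Jak2WT dKO. The size of these shares rests on listed lengths of 8023 bases for Cdc25a, 3728 for Cdc25b and 4919 for Cdc25c. By recovered reads Cdc25a was above Cdc25b in the dKO libraries and below it in those with intact transporters. With 2 clones against 2, no exact permutation test of a single value can reach a p under 0.05, and none is given for shares or ratios.

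**Figure D3:**
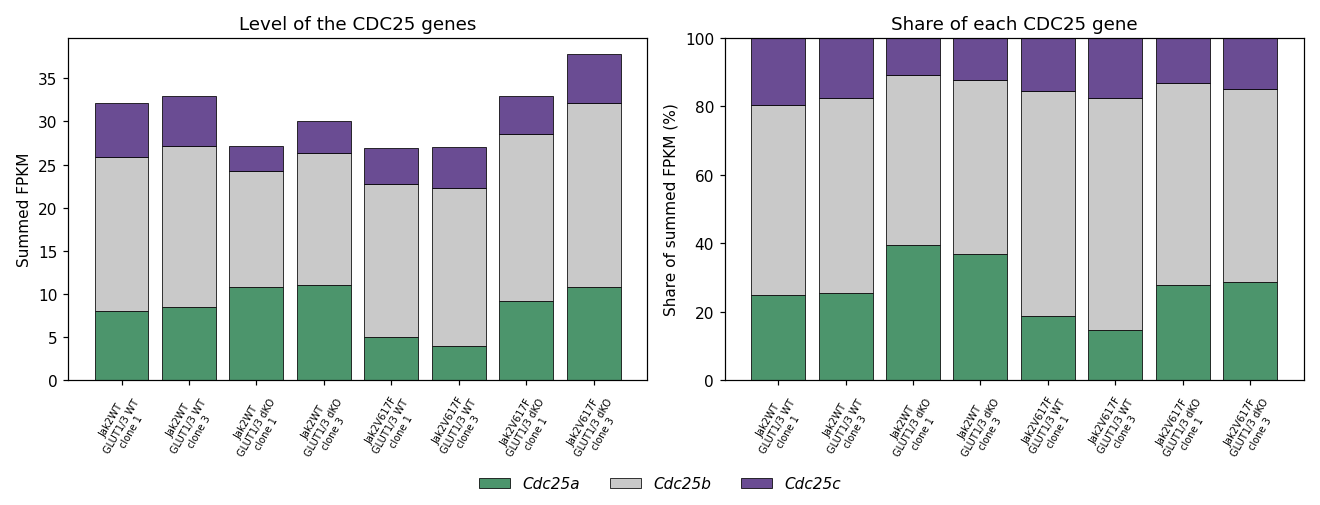
Summed FPKM of Cdc25a, Cdc25b and Cdc25c in each of the 8 libraries (left, bars from 0) and the percentage of that sum held by each gene (right). The green Cdc25a part is smallest in the Jak2V617F GLUT1/3 WT clones, at 14.7% and 18.6%, and largest in the Jak2WT dKO clones, at 36.8% and 39.5%.

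The difference between backgrounds in the response to GLUT1/3 loss was tested as an interaction in the same fit, as the log2 difference in Jak2V617F cells minus that in Jak2WT cells. It was positive and passed for 6 of the 10 genes, against 10.6% of all genes called, with 4.72% in this direction and 5.91% in the other. Clspn had the highest value (1.46 ± 0.23 (SE), adjusted p = 0.0156), followed by Cdc25c (0.85 ± 0.19 (SE), adjusted p = 0.0371) and Chek1 (0.81 ± 0.19 (SE), adjusted p = 0.0397). Topbp1 (0.73 ± 0.14 (SE), adjusted p = 0.0266), Wee1 (0.69 ± 0.11 (SE), adjusted p = 0.0172) and Cdc25b (0.50 ± 0.13 (SE), adjusted p = 0.0495) also passed. For Cdc25c the 2 differences behind it were -0.72 in Jak2WT cells, which passed, and 0.13 in Jak2V617F cells, which did not. For Cdc25b they were -0.33 and 0.17, and neither passed. Cdc25a had 0.63 ± 0.17 (SE), adjusted p = 0.0548, Atm 0.62 ± 0.18 (SE), adjusted p = 0.0667, and Chek2 0.40 ± 0.16 (SE), adjusted p = 0.147, and these did not pass. In 17 alternatives Cdc25a passed in 4, Atm in 3 and Chek2 in 0. Atr had -0.11 (-0.40 to 0.18), and its sign turned with the same total FPKM.

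The number of interaction calls changed on leaving out any 1 library, while the estimates of the 6 genes stayed positive. The leave-one-out estimates were 1.2 to 1.73 for Clspn, the highest, and 0.411 to 0.585 for Cdc25b, the lowest of the 6. Leaving out either Jak2WT GLUT1/3 WT clone left 0 of the 10 genes called, leaving out Jak2WT dKO clone 1 left 1 and clone 3 left 3, and leaving out either Jak2V617F GLUT1/3 WT clone left 2. Without Jak2V617F dKO clone 3 there were 4, and without clone 1 there were 7. Wee1 and Clspn passed in 14 of 17 alternatives, Topbp1 in 11, Chek1 and Cdc25c in 9 and Cdc25b in 6. With the same total FPKM the median interaction of all genes went from -0.039 to 0.12, and the split of calls from 558 higher and 698 lower to 1177 higher and 393 lower.

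Other genes of the pathway were taken from 4 lists and are given by counts. Of 22 sensor and adaptor genes, 21 passed the filter. In Jak2V617F cells after GLUT1/3 loss 11 of them (52.4%) were higher and none lower, against 29.9% of all genes called, with a median log2 difference of 0.296 against -0.0195 for all genes. Rpa2, a subunit of the complex that coats single-stranded DNA and recruits ATR, went from 11.9 to 36.9 FPKM (1.56 (adjusted p = 0.000354)). Timeless and Tipin, which form the fork protection complex that works with claspin, rose by 1.20 (adjusted p = 0.000637) and 1.01 (adjusted p = 0.00167) on the log2 scale. With intact transporters 8 of the 21 were lower and 2 higher in Jak2V617F than in Jak2WT cells (47.6% called, against 30.3% of all genes), led by Rnf168, a ubiquitin ligase of double-strand breaks, at -1.08 (adjusted p = 0.000746). In Jak2WT cells after GLUT1/3 loss 3 of the 21 were called, or 14.3%, which is near the 13.7% of all genes. Nbn (0.41 (adjusted p = 0.037)) and Hus1 (0.31 (adjusted p = 0.0364)) were higher and Rpa3 (-0.37 (adjusted p = 0.0187)) lower. Among dKO cells 3 were higher with Jak2V617F, Mdc1, Rpa2 and Rpa1, or 14.3% against 17.1% of all genes. The 11 became 6 without Jak2V617F GLUT1/3 WT clone 1, the 10 called with intact transporters became 6 without Jak2WT GLUT1/3 WT clone 3, the 3 in Jak2WT cells became 0 without any 1 of the 4 Jak2WT libraries, and the 3 among dKO cells became 1 without Jak2WT dKO clone 1.

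The list of CDC25 partners and targets held 22 genes, all of which passed the filter. In Jak2V617F cells after GLUT1/3 loss 6 were higher and 2 lower, so that 36.4% were called against 29.9% of all genes. The share called was 31.8% against 30.3% between the backgrounds with intact transporters, 9.09% against 13.7% after GLUT1/3 loss in Jak2WT cells and 9.09% against 17.1% among dKO cells, so the list as a whole lay near or under the share of all genes in these 3 comparisons. Ccne1 and Ccne2, the E-type cyclins that bind CDK2, went from 5.05 to 19.4 FPKM and from 9.68 to 27.2 FPKM, log2 differences of 1.77 (adjusted p = 0.000583) and 1.39 (adjusted p = 0.00114). The genes that fell were Ywhae, a 14-3-3 protein, at -0.48 (adjusted p = 0.00823), and Mapkapk2, a stress kinase that can phosphorylate CDC25 proteins, at -0.47 (adjusted p = 0.0102). With intact transporters Ccne1 was lower in Jak2V617F than in Jak2WT cells (-1.62 (adjusted p = 0.00089)), among 6 lower and 1 higher. In Jak2WT cells 2 were lower after GLUT1/3 loss, the mitotic kinases Plk1 (-0.73 (adjusted p = 0.00952)) and Aurka (-0.58 (adjusted p = 0.0106)), which act with CDC25 at mitotic entry. Among dKO cells Ccne2 was higher with Jak2V617F (0.55 (adjusted p = 0.0455)) and Ywhag lower (-0.56 (adjusted p = 0.0234)). The 8 called after GLUT1/3 loss in Jak2V617F cells became 5 without Jak2V617F GLUT1/3 WT clone 1, the 7 with intact transporters became 4 without Jak2WT GLUT1/3 WT clone 3 and 11 without either Jak2V617F dKO clone, and the 2 in Jak2WT cells became 0 without either Jak2WT GLUT1/3 WT clone or Jak2WT dKO clone 1 and 4 without either Jak2V617F dKO clone. Among dKO cells the 2 became 0 without either Jak2WT dKO clone and 1 without either Jak2WT GLUT1/3 WT clone or Jak2V617F dKO clone 1.

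The 10 genes stood beside larger differences in replication genes. Of 20 S phase genes, 20 were higher in Jak2V617F cells after GLUT1/3 loss, against 13.7% of all genes, with a median log2 difference of 1.10, and the highest was Cdc6, a licensing factor of replication origins, at 2.17 (adjusted p = 0.000519). The median over the 10 checkpoint genes in the same comparison was 0.565. With intact transporters 18 of these 20 were lower in Jak2V617F than in Jak2WT cells (median -0.84), against 14.9% of all genes. Among dKO cells 3 were called, or 15% against 17.1% of all genes, all of them higher. In Jak2WT cells limma called 0 of the 20 after GLUT1/3 loss, with 1 at an unadjusted p under 0.05 and 2 called by limma with voom on the recovered reads. Of 20 G2 and M phase genes 10 were higher in Jak2V617F cells after GLUT1/3 loss (median 0.355), so that 50% were called against 29.9% of all genes. In Jak2WT cells 7 were lower and none higher (median -0.30), so that 35% were called against 13.7% of all genes, among them Mki67 (-0.67 (adjusted p = 0.0314)) and Bub1 (-0.65 (adjusted p = 0.0221)). The 7 became 0 without either Jak2WT GLUT1/3 WT clone or Jak2WT dKO clone 1, and 3 without Jak2WT dKO clone 3. With intact transporters 13 of the 20 were lower and none higher in Jak2V617F than in Jak2WT cells (median -0.449), or 65% against 30.3% of all genes, which became 7 and 8 without Jak2WT GLUT1/3 WT clones 1 and 3. Among dKO cells 2 were higher, or 10% against 17.1% of all genes, and 0 without Jak2WT dKO clone 1. The 10 higher in Jak2V617F cells became 3 and 5 without Jak2V617F GLUT1/3 WT clones 1 and 3 and 6 without Jak2V617F dKO clone 3, and the 3 S phase genes among dKO cells became 1 or 0 without either Jak2WT GLUT1/3 WT clone, Jak2WT dKO clone 1 or either Jak2V617F dKO clone. In a bulk culture a different share of cells in S phase and a different amount of RNA per cell cannot be told apart.

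The interaction was positive and passed for 9 of the 21 sensors and adaptors, 18 of the 20 S phase genes and 11 of the 20 G2 and M phase genes, and for 5 of the 22 CDC25 partners, with 1 more partner in the other direction. These are 42.9%, 90%, 55% and, for the 6 partners, 27.3%, against 10.6% of all genes. Without Jak2WT GLUT1/3 WT clone 1, clone 3 or Jak2WT dKO clone 1 the S phase calls became 3, 0 and 3, the sensors 2, 0 and 1, and the partners and the G2 and M phase genes 0. Without Jak2V617F GLUT1/3 WT clones 1 and 3 there were 4 and 5 sensors, 2 and 3 partners and 2 and 6 G2 and M phase genes, and without Jak2WT dKO clone 3 there were 6 G2 and M phase genes.

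**Figure D4:**
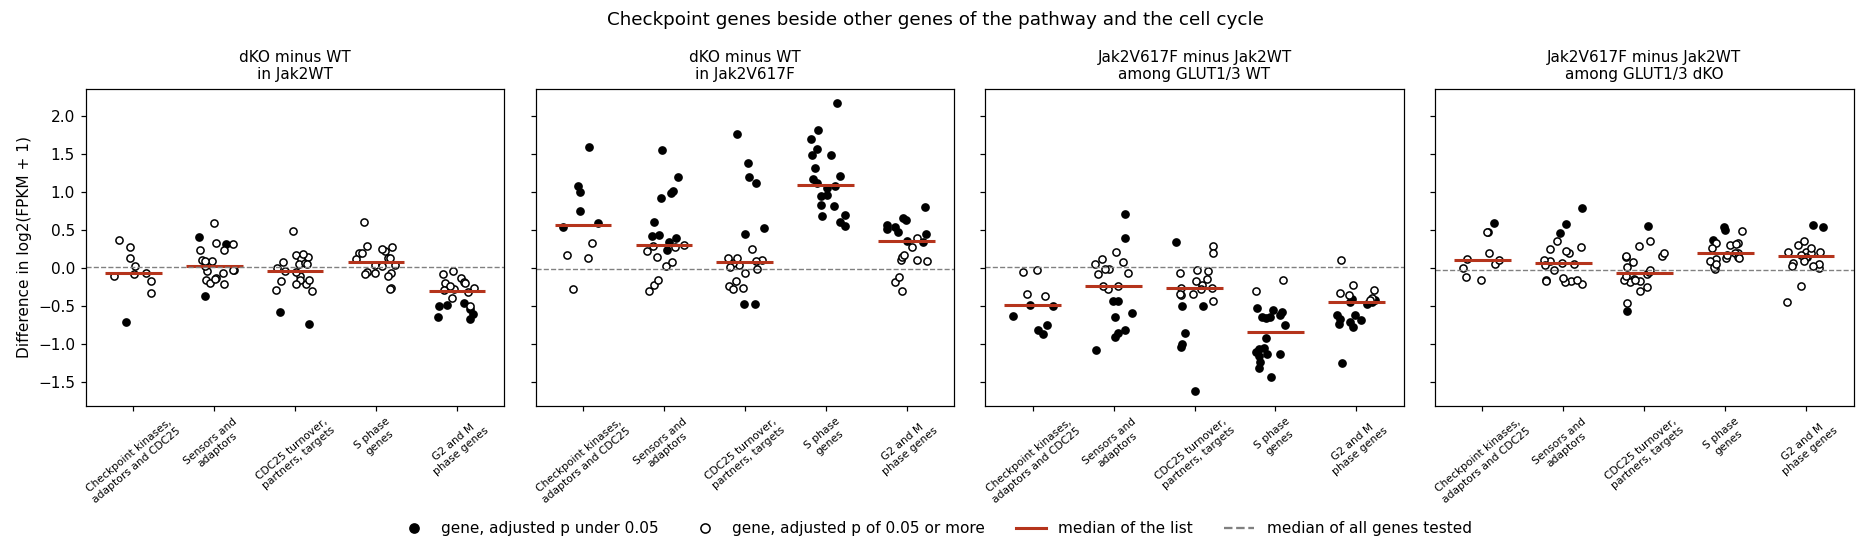
Difference in log2(FPKM + 1) of every tested gene of the 10 checkpoint genes and 4 pathway lists (columns) in 4 comparisons (panels), with filled points for an adjusted p under 0.05, red lines for list medians and a dashed line for the median of all genes tested. In the second panel the checkpoint genes have a median of 0.565 and the S phase genes 1.10, and in the first panel the G2 and M phase genes have -0.30.

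The genes most like each of the 10 were found by the root mean square difference of log2(FPKM + 1), centred per gene, over the 8 libraries, among 11817 others. Cdc25a was nearest to Tipin (0.0509), Ranbp1 (0.0604) and Exo1 (0.0769), and Chek1 to Exo1 (0.0662), Tipin (0.0698) and Timeless (0.0775). Exo1 and Tipin therefore stood among the nearest of both, and the SD over the libraries was 0.444 for Cdc25a and 0.459 for Chek1. Topbp1 was nearest to Tmpo (0.0643), Zmym1 (0.0676) and Gmnn (0.0708), and Clspn to Pidd1 (0.121), Uhrf1 (0.143) and Mybl2 (0.143). Wee1 was nearest to Tubgcp6, Ssna1 and Smc2, Atm to Znhit3, Knl1 and Pola1, and Cdc25c to Pif1, Tmem86b and Gm8066. The neighbours of genes that varied little, such as Atl2, Usp33 and Cfap20 for Atr, Ccdc57, Dnaaf3 and Caskin2 for Chek2 and Dgkz, Prpf8 and Rmc1 for Cdc25b, lay at 0.0363 to 0.0669, where the SD over the libraries was 0.133 for Atr, 0.165 for Chek2 and 0.182 for Cdc25b.

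Of the 10 genes 5 lie on chromosome 9, which are Atm, Atr, Chek1, Topbp1 and Cdc25a, at positions apart from one another. Among them Atr did not share the low level of the other 4 in Jak2V617F GLUT1/3 WT. Other annotated genes overlap 6 of the 10, Atr, Wee1, Clspn, Cdc25a, Cdc25b and Cdc25c, and none of the overlapping genes exceeded 2.69 FPKM in any library.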

How the data were processed

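Polyadenylated RNA of 8 cultures was sequenced as paired reads. The authors cleaned reads with fastp 1.0.1, aligned them to mm39 with HISAT2 2.2.1 and counted them per gene with featureCounts 2.0.6. The deposited values are FPKM with a gene length in bases, and the annotation release, the strand setting and the library total behind FPKM are not given in the sources used here. FPKM times gene length came out as whole multiples of 1 step per library (within 0.01 of a read) for 100% of values, which gave whole reads. Groups came from the sample titles.

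Genes with at least 1 FPKM in at least 2 of 8 libraries (11818 of 56748) were tested in R 4.3.3 with limma 3.58.1 on log2(FPKM + 1), with 1 mean per group, empirical Bayes with a trend and Benjamini-Hochberg adjustment over all genes tested, at a threshold of 0.05. The fit had 4 residual degrees of freedom. The script was tested on simulated data. As alternatives the pseudocount, filter, trend, scaling, libraries and a clone block were varied, and limma with voom was run on the recovered reads, which called 2615 genes after GLUT1/3 loss in Jak2WT and 3966 in Jak2V617F cells, against 1617 and 3533.

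The 10 genes, the pathway and marker lists were chosen with earlier results of these data known. Genes named from a pathway list are the up to 3 higher and 3 lower called genes of the largest absolute log2 difference in a comparison. Sequences are from RefSeq, GRCm38.p6; those for Wee1 and Cdc25c were not used here. Gene positions are those of the deposited table on GRCm39. Part of the cell line's construction and part of the marker lists are not reported here.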

Additional observations from a re-analysis of the deposited data

Results flagged for a closer look

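For 6 genes the response to GLUT1/3 loss differed between the 2 backgrounds by the interaction test in limma. The log2 difference after GLUT1/3 loss in Jak2V617F cells minus that in Jak2WT cells was 1.464 for Clspn (adjusted p = 0.0156, over alternatives 0.00235 to 0.0723), 0.8468 for Cdc25c (adjusted p = 0.0371, 0.0141 to 0.13) and 0.8062 for Chek1 (adjusted p = 0.0397, 0.0122 to 0.137). It was 0.7263 for Topbp1 (adjusted p = 0.0266, 0.00359 to 0.104), 0.6854 for Wee1 (adjusted p = 0.0172, 0.00313 to 0.0805) and 0.4984 for Cdc25b (adjusted p = 0.0495, 0.0161 to 0.166). With 2 clones in each group no group was large enough for a search for outlying libraries.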

How the results depend on the processing

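The estimates rest on 2 clones a group, and a lone clone left after leaving out its partner is assumed to vary like the other groups. In Jak2V617F cells after GLUT1/3 loss the 6 called checkpoint genes became 5 to 7, and with intact transporters the 6 lower in Jak2V617F became 4 to 8, over all alternatives. S phase counts were 18 to 20 (20 as reported) and 14 to 19 (18 as reported) in the same comparisons, other counts are given below, and the cause of the changes was not tested. Over single-gene results, 445 kept their direction and side of the threshold under settings other than leaving out a library, 16 lost and 22 gained the call and 7 turned sign, and on leaving out a library 331 were kept, 50 lost, 10 gained and 9 turned. Results that turned sign were not called in either fit.

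In Jak2WT cells after GLUT1/3 loss the calls were 1 of the 10 checkpoint genes, 3 sensors and adaptors, 2 CDC25 partners, 0 S phase genes and 7 G2 and M phase genes. With no filter on low values they were 0 checkpoint genes, 1 sensor and 0 G2 and M phase genes, and with no trend 1 sensor. Robust estimates and median ratio scaling called 2 checkpoint genes, and the same total FPKM 2 checkpoint genes, 1 sensor and 5 partners. With voom there were 3 checkpoint genes, 5 partners and 2 S phase genes, and with only the groups compared 2, 6 sensors, 4 partners and 1 S phase gene. Leaving out 1 library gave 0 to 2 checkpoint genes, 0 to 4 sensors, 0 to 4 partners, 0 to 1 S phase genes and 0 to 10 G2 and M phase genes.

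In Jak2V617F cells after GLUT1/3 loss the G2 and M phase calls went from 10 to 4 with no filter, and with only the groups compared there were 6 sensors, 4 partners and 4 G2 and M phase genes. Leaving out 1 library gave 6 to 13 sensors, 5 to 9 partners and 3 to 11 G2 and M phase genes. Between Jak2V617F and Jak2WT with intact transporters, with 10 sensors and 13 G2 and M phase genes called, the 7 partners became 13 with the same total FPKM and 11 with voom, and leaving out 1 library gave 6 to 10 sensors, 4 to 11 partners and 7 to 17 G2 and M phase genes. Among dKO cells no filter left 1 checkpoint gene, 0 partners, 0 S phase genes and 1 G2 and M phase gene, and no trend 1 checkpoint gene and 1 partner. The same total FPKM gave 4 partners, voom 4 partners and 8 S phase genes, and only the groups compared 0 in each list but the sensors. Leaving out 1 library gave 0 to 2 checkpoint genes, 1 to 3 sensors, 0 to 2 partners, 0 to 3 S phase genes and 0 to 2 G2 and M phase genes. For the interaction, with 6 checkpoint genes, 9 sensors, 6 partners, 18 S phase and 11 G2 and M phase genes called, no filter left 1, 4, 1, 6 and 1, and leaving out 1 library gave 0 to 7 checkpoint genes, 0 to 8 sensors, 0 to 7 partners, 0 to 18 S phase genes and 0 to 14 G2 and M phase genes.

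The sign turned for Topbp1 after GLUT1/3 loss in Jak2WT cells, to -0.0726 with the same total FPKM and -0.0361 with voom. Leaving out 1 library gave -0.0564 to 0.104 for Topbp1 and -0.134 to 0.393 for Clspn there, both negative without Jak2WT dKO clone 3. In Jak2V617F cells Cdc25c ranged from -0.0306, without Jak2V617F dKO clone 3, to 0.292. Cdc25b with intact transporters ranged from -0.0553 to 0.0108, without Jak2WT GLUT1/3 WT clone 3. Among dKO cells leaving out 1 library gave -0.0713 to 0.311 for Atm, -0.0272 to 0.141 for Chek2, -0.00141 to 0.198 for Topbp1, each negative without Jak2V617F dKO clone 3, and -0.21 to 0.195 for Chek1. Chek1 among dKO cells was 0.0285 with the same total FPKM, 0.0194 with median ratio scaling, 0.0179 with voom and 0.0351 without Jak2WT dKO clone 3. The interaction of Atr was 0.058 with the same total FPKM and 0.0277 with voom.

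Clone numbers did not pair the samples, since deviations of same-numbered clones correlated at -0.254 to 0.152. With the clone number as a replicate block the calls among the 10 checkpoint genes were 1 after GLUT1/3 loss in Jak2WT, 7 in Jak2V617F cells, 7 with intact transporters, 3 among dKO cells and 6 for the interaction. The block left 1 sensor called in Jak2WT cells and 1 S phase gene among dKO cells.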
